A study of Mus musculus with 4 samples.

Results

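The blood-brain barrier genes described here are 10 genes that brain endothelial cells are known for, Cldn5, Abcb1a, Abcg2, Slco1a4, Slc2a1, Mfsd2a, Flt1, Ly6c1, Itm2a and Sox17, out of 31055 genes counted. They were picked by name after earlier results of the same data showed several of them at a lower level in Dp(10)2Yey than in wild-type (WT) libraries when all barcodes of a library were summed. That contrast chose them, so its values are given as a description with no test. The question taken up is how much of it lay in the share of endothelial barcodes in each library and how much in the level of each gene within endothelial barcodes. The data are 3' single-cell RNA counts of dissociated hippocampus from 3-month-old male mice on a C57BL/6J background, 2 WT mice and 2 littermates carrying the Dp(10)2Yey duplication of a segment of chromosome 10, with 1 library for each mouse. Cells were prepared on 2 days, with 1 mouse of each genotype on each, and which replicate numbers shared a day is not given in the sources used here. None of the 10 genes (0 of 10) is on chromosome 10. The WT libraries held 3002546 and 6848466 UMIs (counted molecules) in 1039 and 1708 barcodes, replicate 1 first, and the Dp(10)2Yey libraries held 5112759 and 9612011 UMIs in 1372 and 2345 barcodes. Median depth was lowest in WT replicate 1, with 2049 UMIs for a barcode, beside 3670 in the other WT library and 3386 and 3696 in the Dp(10)2Yey libraries.

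The barrier is formed by endothelial cells of brain vessels, which seal the gaps between them with tight junctions and carry out little unselective vesicle traffic. Nutrients enter through uptake carriers, while efflux pumps return many drugs and metabolites to the blood, and Wnt signalling from the surrounding tissue keeps this state in place. Claudin 5 (Cldn5) is the main sealing protein of the junctions. Abcb1a (P-glycoprotein) and Abcg2 are efflux pumps, Slco1a4 carries organic anions, Slc2a1 (GLUT1) carries glucose, and Mfsd2a carries lysophosphatidylcholine with its omega-3 fatty acids and holds vesicle traffic low. Flt1 is a receptor for VEGF-A, Ly6c1 is a surface protein tethered by a lipid anchor, Itm2a is a membrane protein, and Sox17 is a transcription factor of endothelial cells.

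Promoter sequence was available in the RefSeq table (GRCm38.p6) for 9 of the 10 genes, with 12 promoters of 300 bases around a start site. It was searched on both strands for core letters of factor families known in endothelial cells: AGGAAG for ETS factors, AACAAT for SOX, TAAACA for FOX and CTTTGA for TCF/LEF, the factors of Wnt signalling. Of all 32851 promoters of this length, 35.4% hold the ETS letters, 10.7% the SOX letters, 13.4% the FOX letters and 16% the TCF/LEF letters. At least 1 promoter of 6 of the 9 genes held the ETS letters, of 3 the FOX letters, of 2 the TCF/LEF letters and of 1 the SOX letters. These counts are by gene, and some genes have several promoters, so they are not on the scale of the shares by promoter. The Abcb1a promoter (chr5:8566841-8567140) lies far upstream of the gene start at 8660077 in the gene positions used. It counts for the ETS, FOX and TCF/LEF letters. Cldn5 and Slc2a1 held none of these letters in this window. The 4 promoters below are shown because between them they hold all 4 motifs, in a receptor, a membrane protein and a pair of carriers whose levels are compared further on. Capitals mark the motifs on either strand, each sequence reads 5' to 3' along the gene's own strand, and all 4 genes are on the minus strand. Flt1 (chr5:147725962-147726261) holds the ETS letters at 2 places, Itm2a (chrX:107403311-107403610) holds them at 2 places that overlap, Slco1a4 (chr6:141856171-141856470) holds overlapping FOX and SOX letters and the ETS letters on the other strand, and Mfsd2a (chr4:122961139-122961438) holds the TCF/LEF letters. A match describes the letters and is not a site.
Flt1: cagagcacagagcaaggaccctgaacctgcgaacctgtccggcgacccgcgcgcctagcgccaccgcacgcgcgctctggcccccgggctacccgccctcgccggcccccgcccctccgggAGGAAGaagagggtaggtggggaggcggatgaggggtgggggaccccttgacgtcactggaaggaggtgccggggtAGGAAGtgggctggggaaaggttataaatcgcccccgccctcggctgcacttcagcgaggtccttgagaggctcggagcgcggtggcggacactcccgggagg
Itm2a: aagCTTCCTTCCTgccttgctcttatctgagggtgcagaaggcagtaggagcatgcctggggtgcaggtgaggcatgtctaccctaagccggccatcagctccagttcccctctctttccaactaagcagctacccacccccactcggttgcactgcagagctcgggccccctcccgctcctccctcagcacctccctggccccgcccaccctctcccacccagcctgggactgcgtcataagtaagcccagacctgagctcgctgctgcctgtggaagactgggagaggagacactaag
Slco1a4: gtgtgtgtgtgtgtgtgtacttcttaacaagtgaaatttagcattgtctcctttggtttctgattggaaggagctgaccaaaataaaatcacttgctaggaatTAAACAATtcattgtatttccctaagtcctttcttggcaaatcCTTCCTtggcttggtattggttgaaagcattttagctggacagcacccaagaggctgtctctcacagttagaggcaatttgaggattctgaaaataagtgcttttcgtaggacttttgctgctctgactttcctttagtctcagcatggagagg
Mfsd2a: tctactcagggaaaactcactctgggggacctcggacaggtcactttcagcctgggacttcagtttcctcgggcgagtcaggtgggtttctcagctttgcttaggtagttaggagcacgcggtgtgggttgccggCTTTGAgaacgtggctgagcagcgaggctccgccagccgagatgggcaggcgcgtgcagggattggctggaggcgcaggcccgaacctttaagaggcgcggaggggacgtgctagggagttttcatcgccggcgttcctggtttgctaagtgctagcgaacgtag

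Clustering put 298 barcodes into an endothelial-like cluster, called endothelial from here on. The members were kept out of the genes used for clustering. With members also left out of the ranking, 32 of the 50 genes with the highest fold over all other barcodes were endothelial markers. The leading 10, however, were a tie between classes, with 4 endothelial markers (Ly6a, Igfbp7, Ptprb and Cxcl12), 4 globin genes (Hbb-bs, Hba-a1, Hba-a2 and Hbb-bt) and 2 pericyte markers (Rgs5 and Vtn). With both members and globin genes left out, 8 of the leading 10 were endothelial markers. Of the 298 barcodes, 186 held UMIs of at least 8 of 19 endothelial genes used as a panel, which holds no member, and 19 barcodes held none of them. Panel genes summed to 9625 and 10110 UMIs per 1000000 UMIs of the endothelial barcodes (CPM) in WT replicates 1 and 2, and to 8694 and 9985 in Dp(10)2Yey replicates 1 and 2.

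RNA of other cells was present in the cluster and was not equal between genotypes. Of 19 pericyte and smooth muscle genes, 18 were detected, led by Vtn, with Cnn1 at 0. They summed to 3360 and 3189 CPM in WT replicates 1 and 2, and to 7080 and 5393 CPM in Dp(10)2Yey replicates 1 and 2, so both Dp(10)2Yey libraries were higher. Barcodes with at least 3 pericyte genes and more of them than of the panel numbered 2 and 4 in WT, and 10 and 9 in Dp(10)2Yey. Globin genes made up 4.37% and 3.18% of the endothelial UMIs in WT, and 2.20% and 4.65% in Dp(10)2Yey, overlapping between genotypes, with 5 of 8 detected, Hbb-bs the most abundant and Hbb-bh1, Hbb-bh2 and Hba-x at 0. Astrocyte genes, 25 of 25 detected, were also higher in both Dp(10)2Yey libraries, with 2650 and 2502 CPM in WT and 3400 and 3139 CPM in Dp(10)2Yey. So were oligodendrocyte precursor genes, 15 of 18 detected, led by Sirt2 and with Gpr17, Neu4 and C1ql1 at 0, which summed to 258 and 236 CPM in WT and 355 and 413 CPM in Dp(10)2Yey. Oligodendrocyte genes, 22 of 22 detected and led by Ptgds, summed to 4725 CPM in Dp(10)2Yey replicate 2 and to 1107 to 1592 CPM in the other libraries. Microglia genes, 23 of 23 detected and led by C1qa, were highest in WT replicate 2, at 2947 CPM, beside 1547 to 1818 CPM elsewhere. Ependymal genes, 7 of 16 detected, led by Rarres2 and with Foxj1 among those at 0, came to 58.8 and 61.2 CPM in WT and 194 and 105 CPM in Dp(10)2Yey. Granulocyte and monocyte genes, 6 of 12 detected, led by S100a8 and with Ly6g among those at 0, came to 1149 CPM in WT replicate 1 and 2.78 to 66.6 CPM elsewhere. Macrophage genes, 5 of 9 detected, led by Pf4 and with Cd163 among those at 0, were also highest in WT replicate 1, at 416 CPM beside 48.4 to 97.3 CPM. T and NK cell genes, 10 of 14 detected, led by Gzma and with Cd3e among those at 0, were highest in Dp(10)2Yey replicate 1, at 339 CPM beside 2.78 to 7.69 CPM. The part of these cells in the values below was not tested.

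Across cell classes the members were endothelial genes, which is how they are known. Among the 10 classes with at least 10 barcodes in every library, all 10 genes had their highest mean CPM in the endothelial class, which is a description, since clusters are made from expression. Over the 4 libraries, endothelial Cldn5 averaged 5720 CPM ± 468 (SD, n = 4), and the next class, macrophages, averaged 87.4 ± 151 CPM (SD, n = 4), a mean that rests on 12 UMIs of Dp(10)2Yey replicate 1 and does not differ beyond its spread from neurons at 13.6 ± 5.25 CPM (SD, n = 4). For 8 genes the endothelial mean was at least 15.6 times that of the next class. Exceptions were the glucose carrier Slc2a1, with an endothelial mean of 1091 ± 42 CPM (SD, n = 4) beside 517 ± 33.1 CPM (SD, n = 4) in ependymal barcodes, and the lipid carrier Mfsd2a. Endothelial Mfsd2a averaged 252 ± 43.5 CPM (SD, n = 4), and oligodendrocyte precursors followed with 169 ± 13.6 CPM (SD, n = 4) and astrocytes with 81.3 ± 20.1 CPM (SD, n = 4). Mfsd2a was higher in endothelial barcodes than in precursors in 4 of 4 libraries: 285 and 270 CPM in WT endothelial barcodes beside 186 and 173 in WT precursors, and 188 and 266 CPM in Dp(10)2Yey endothelial barcodes beside 154 and 163 in Dp(10)2Yey precursors. Astrocytes had 94.6 ± 10.9 CPM (SD, n = 4) of Slc2a1, next in its order, and macrophages, at 71.6 ± 109 CPM (SD, n = 4), did not differ from them beyond their spread.

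**Figure D1:**
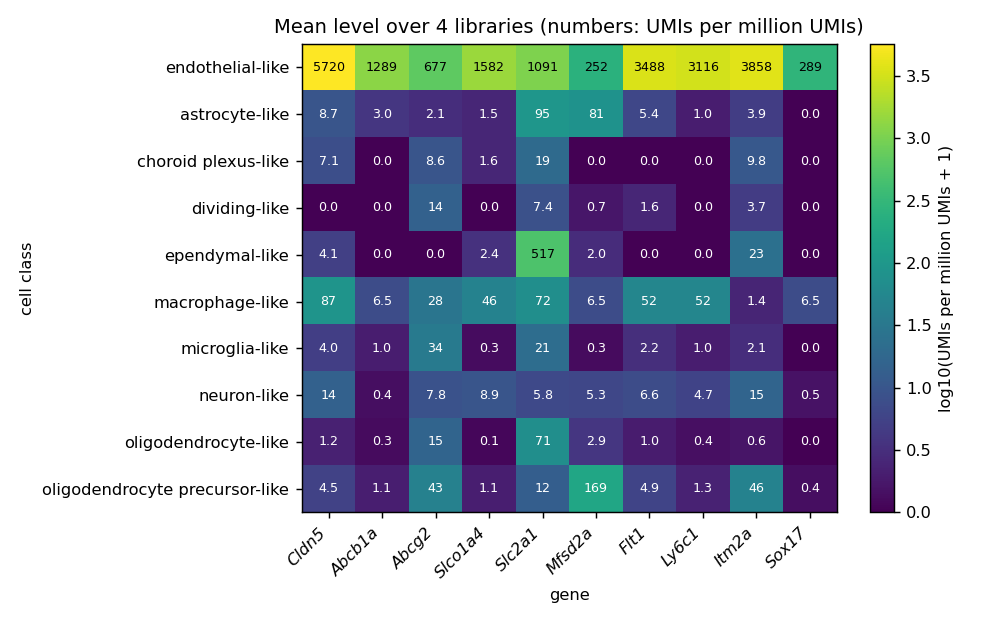
Mean level of each gene in each cell class over the 4 libraries. Numbers and colours give UMIs per 1000000 UMIs of the class, and each column should be read down, since counts of different genes are not compared per length. The endothelial class is highest in every column, while Slc2a1 in ependymal and Mfsd2a in oligodendrocyte precursor barcodes come nearest to it.

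The same genes held different shares of their UMIs in endothelial barcodes. For 7 of the 10 genes over 90% of all UMIs of the 4 libraries were in the cluster, up to 99.1% for Sox17. Lower shares belonged to Abcg2 with 57.0%, Slc2a1 with 51.6% and Mfsd2a with 34.9%. Across 40 sums of class and library, the genes whose log2(CPM + 10) was most like the mean of the members were Cdh5 (r = 0.990, n = 40 sums), the adhesion protein of endothelial junctions, Cyyr1 (r = 0.989), the phosphatase Ptprb (r = 0.988), and the transcription factors Foxq1 (r = 0.988) and Foxf2 (r = 0.987). Sums of a library share its mouse and its depth, so these are descriptions. Among the members, Sox17 was most like the mean of the others (r = 0.988, n = 40 sums), and Slc2a1 and Mfsd2a were least like it (r = 0.650 and 0.652, n = 40 sums). The near relatives Ly6c2 and Abcb1b are known to share sequence with Ly6c1 and Abcb1a. Of 795 windows of 50 bases in the longest Ly6c1 transcript, 31.7% occur in Ly6c2, with a smaller share in its last 500 bases, near which 3' counts fall. Of 4948 windows in Abcb1a, 15.5% occur in Abcb1b, and 0% of those in its last 500 bases. How reads of such windows were assigned cannot be told from the counts. Ly6c2 had 0 UMIs in endothelial barcodes of all 4 libraries. In macrophages it had 0, 0, 495 and 28.1 CPM in WT replicates 1 and 2 and Dp(10)2Yey replicates 1 and 2. Their mean of 131 ± 243 (SD, n = 4) rests on 19 UMIs of Dp(10)2Yey replicate 1. The T and NK cell class, with 2 to 11 barcodes in a library, held 15, 0, 2 and 39 UMIs of Ly6c2 in the same order. Abcb1b averaged 1.99 CPM in endothelial barcodes and 28.5 CPM in microglia.

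At equal depth most members were found in most endothelial barcodes. Each barcode was thinned to 1000 UMIs, which kept 205 of the 298 endothelial barcodes and 2129 of 2568 microglia. Microglia, a class with lower levels of all members, had a median of 3612 UMIs before thinning, beside 2016 in endothelial barcodes. Cldn5 was then found in 87.8% of endothelial barcodes and 0.188% of microglia, Abcb1a in 64.4% and 0.0939%, and Slco1a4 in 68.3% and 0%. Flt1, Itm2a and Ly6c1 were found in 84.4%, 81.0% and 80.0% of endothelial barcodes, Slc2a1 in 56.1% and Abcg2 in 46.8%. Abcg2 and Slc2a1 also had the highest shares in microglia, 3.29% and 1.83%. Mfsd2a was found in 19% of endothelial barcodes and 0.0470% of microglia, and Sox17 in 13.1% to 33.3% of endothelial barcodes of a library and 0% of microglia, so a barcode without a UMI of either does not show that the gene is off.

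In whole libraries, the measure that chose them, all 10 members were lower in both Dp(10)2Yey libraries than in both WT libraries. The same arrangement held for 18.5% of all 13768 genes tested there. Summed over the members, library levels were 1758 and 1307 CPM in WT replicates 1 and 2, and 856 and 952 CPM in Dp(10)2Yey replicates 1 and 2. Fitted log2 fold changes, Dp(10)2Yey over WT, had a median of -0.76 over the members and of -0.00 over all genes. In endothelial barcodes alone, the members summed to 21985 and 22652 CPM in WT and to 20082 and 20726 CPM in Dp(10)2Yey. These CPM sums did not overlap between genotypes either, but lay closer together. Member UMIs for each endothelial barcode, not scaled for depth, did overlap. Their means were 78.4 and 95.8 in WT replicates 1 and 2, and 66.7 and 85.1 in Dp(10)2Yey replicates 1 and 2. Their medians were 23 and 48 in WT, and 45 and 53 in Dp(10)2Yey. The median fold change of the members in endothelial sums was -0.19, beside -0.00 over all 4790 genes tested there. All 10 members passed the filter on low counts in endothelial sums, 8 had a fold change below 0, as did 50.3% of all genes, and for 4 the genotypes did not overlap, an arrangement that 17.1% of all genes showed in the same direction. Of the 4790 genes, 0 (0%) had an adjusted p under 0.01 in the edgeR quasi-likelihood test with Benjamini-Hochberg adjustment, 200 had an unadjusted p under 0.05, and DESeq2 on the same sums also called 0, with 26 at an unadjusted p under 0.05. For a single value, 2 libraries against 2 allow no two-sided exact permutation p below 0.33. Keeping only the 250 endothelial barcodes with at least 2 panel genes and more panel than pericyte genes, an alternative added once values were known and called the stricter endothelial set, moved the median to -0.12. The barcodes dropped from this set include the 25 that looked like pericytes and others with few panel genes. Pericyte genes in the kept barcodes summed to 2854 and 2521 CPM in WT and 3405 and 4111 CPM in Dp(10)2Yey, still higher in Dp(10)2Yey. With all 298 barcodes, leaving out Dp(10)2Yey replicate 1 moved the median to -0.05, and leaving out either WT library to -0.12. With the replicate number as a block, 7 genes were called, none of them a member.

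**Figure D2:**
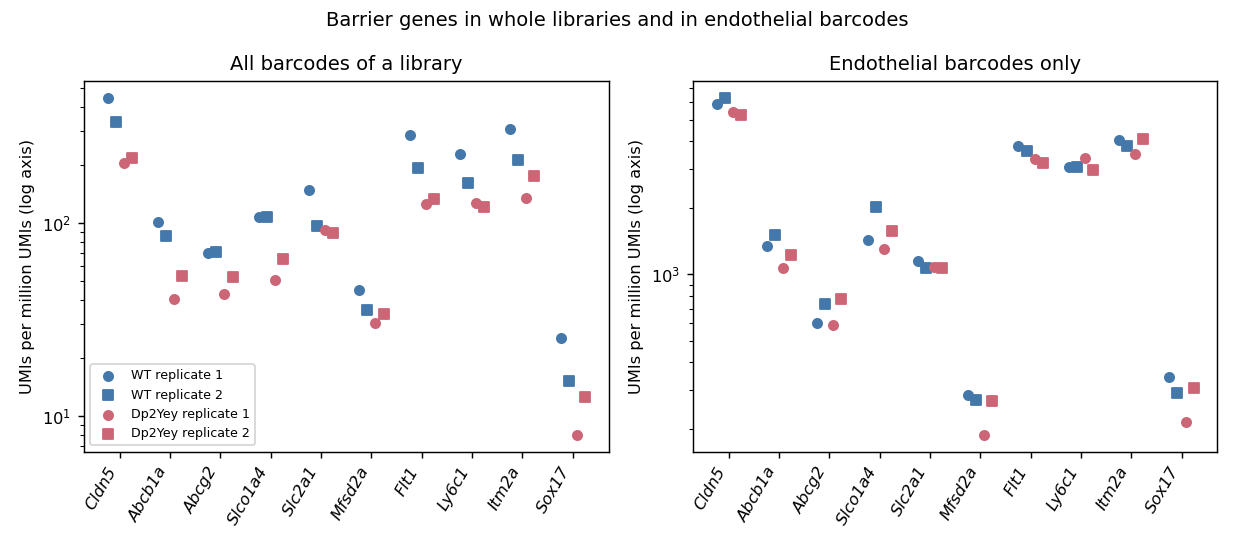
Level of each gene in each library, as UMIs per 1000000 UMIs on a log axis. On the left all barcodes of a library are summed, and both Dp(10)2Yey libraries lie below both WT libraries for every gene. On the right only endothelial barcodes are summed, and the libraries lie close together, with Cldn5, Abcb1a, Mfsd2a and Flt1 the genes without overlap between genotypes.

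The junction gene Cldn5 had 444 and 332 CPM in the whole WT libraries, replicates 1 and 2, and 205 and 217 CPM in the Dp(10)2Yey libraries. Within endothelial barcodes Cldn5 had 5893 and 6292 CPM in WT, and 5455 and 5240 CPM in Dp(10)2Yey. Both scales put the Dp(10)2Yey libraries lower with no overlap, but the difference within endothelial barcodes was the smaller one. As log2 fold changes, Cldn5 had -0.83 (standard error 0.16) in whole libraries and -0.19 (standard error 0.19) in endothelial sums.

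Of the efflux pumps, Abcb1a had 101 and 86.0 CPM in the whole WT libraries and 40.3 and 52.9 CPM in the Dp(10)2Yey libraries. Endothelial barcodes held 1348 and 1510 CPM of Abcb1a in WT, and 1071 and 1227 CPM in Dp(10)2Yey. Dp(10)2Yey was thus lower on both scales without overlap, with log2 fold changes of -0.95 (standard error 0.18) and -0.31 (standard error 0.18), the lowest of the members on each. Abcg2, the other pump, had 70.3 and 71.1 CPM in the whole WT libraries and 43.0 and 52.6 CPM in the Dp(10)2Yey libraries. Endothelial Abcg2 was at 602 and 737 CPM in WT, and at 592 and 776 CPM in Dp(10)2Yey. Replicate 1 was the lower library of both genotypes, and the genotypes overlapped, with a log2 fold change of 0.04 (standard error 0.20) in endothelial sums beside -0.51 (standard error 0.15) in whole libraries.

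Among the uptake carriers, Slco1a4 had 107 and 107 CPM in the whole WT libraries and 50.7 and 65.4 CPM in the Dp(10)2Yey libraries. Endothelial Slco1a4 was at 1438 and 2021 CPM in WT and at 1297 and 1571 CPM in Dp(10)2Yey. The endothelial values overlapped because WT replicate 1 lay below Dp(10)2Yey replicate 2, and the log2 fold change was -0.27 (standard error 0.21), beside -0.83 (standard error 0.16) in whole libraries. The glucose carrier Slc2a1 had 148 and 96.4 CPM in the whole WT libraries and 92.1 and 89.2 CPM in the Dp(10)2Yey libraries. Within endothelial barcodes Slc2a1 had 1153 and 1065 CPM in WT and 1076 and 1068 CPM in Dp(10)2Yey. All 4 endothelial values of Slc2a1 were close, with a log2 fold change of -0.05 (standard error 0.18), and its value in whole libraries was -0.37 (standard error 0.20). Mfsd2a had 45 and 35.3 CPM in the whole WT libraries and 30.5 and 33.7 CPM in the Dp(10)2Yey libraries. Its endothelial level was 285 and 270 CPM in WT, and 188 and 266 CPM in Dp(10)2Yey. The groups did not overlap, but only Dp(10)2Yey replicate 1 stood apart from the other libraries, and the log2 fold changes were -0.24 (standard error 0.22) in endothelial sums and -0.25 (standard error 0.17) in whole libraries. In the stricter endothelial set the values of Mfsd2a overlapped, and 3 members remained without overlap (16.1% of all genes), while under the marker gate taken up further on 10 members were without overlap (18.4% of all genes).

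The VEGF receptor gene Flt1 had 284 and 192 CPM in the whole WT libraries and 125 and 133 CPM in the Dp(10)2Yey libraries. Endothelial Flt1 was at 3813 and 3603 CPM in WT and at 3335 and 3200 CPM in Dp(10)2Yey. Flt1 was lower in Dp(10)2Yey on both scales with no overlap, with log2 fold changes of -0.83 (standard error 0.19) and, in endothelial sums, -0.18 (standard error 0.19). The surface gene Ly6c1 had 228 and 161 CPM in the whole WT libraries and 127 and 121 CPM in the Dp(10)2Yey libraries. Endothelial Ly6c1 was at 3071 and 3061 CPM in WT, and at 3362 and 2970 CPM in Dp(10)2Yey. WT values lay between those of Dp(10)2Yey, with a log2 fold change of 0.04 (standard error 0.19), beside -0.60 (standard error 0.17) in whole libraries. Itm2a had 306 and 211 CPM in the whole WT libraries and 135 and 175 CPM in the Dp(10)2Yey libraries. Its endothelial values were 4039 and 3801 CPM in WT and 3491 and 4102 CPM in Dp(10)2Yey. Here Dp(10)2Yey replicate 2 was the highest library and Dp(10)2Yey replicate 1 the lowest, and the log2 fold change was -0.04 (standard error 0.19), beside -0.69 (standard error 0.21) in whole libraries. The transcription factor gene Sox17 had 25.3 and 15.3 CPM in the whole WT libraries and 8.02 and 12.6 CPM in the Dp(10)2Yey libraries. Endothelial Sox17 was at 344 and 292 CPM in WT, and at 215 and 305 CPM in Dp(10)2Yey. Dp(10)2Yey replicate 1 was lowest and the genotypes overlapped, with log2 fold changes of -0.24 (standard error 0.22) in endothelial sums and -0.85 (standard error 0.31) in whole libraries.

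Endothelial barcodes themselves took a smaller share of the Dp(10)2Yey libraries. There were 62 of 1039 barcodes in WT replicate 1, or 5.97% (95% interval 4.61% to 7.58%), and 85 of 1708, or 4.98% (3.99% to 6.12%), in WT replicate 2. In Dp(10)2Yey there were 56 of 1372, or 4.08% (3.10% to 5.27%), in replicate 1 and 95 of 2345, or 4.05% (3.29% to 4.93%), in replicate 2. Both Dp(10)2Yey shares lay below both WT shares, with a log2 ratio of -0.42, while the intervals, which hold counting error only, overlapped between genotypes. These are shares of recovered barcodes after dissociation, not of cells in the tissue. Of all UMIs, endothelial barcodes held 7.36% and 5.25% in WT, and 3.64% and 4.06% in Dp(10)2Yey. Mean depth of an endothelial barcode was 3566 and 4231 UMIs in WT replicates 1 and 2, where a barcode of the whole library averaged 2890 and 4010 UMIs. In Dp(10)2Yey it was 3319 and 4108 UMIs, beside 3727 and 4099 UMIs in whole libraries. On means, endothelial barcodes were deeper than the library average in WT replicate 1 above all, and shallower than it in Dp(10)2Yey replicate 1. Medians gave another picture, with 1321 and 2078 UMIs for an endothelial barcode in WT and 2360 and 2129 UMIs in Dp(10)2Yey, below the library median in 4 of 4 libraries and lowest in WT replicate 1. Leaving out WT replicate 1 gave a share ratio of -0.29 and a median of -0.51 for the members in whole libraries. The libraries shared at most 3 barcode sequences in a pair, and shared 0 endothelial ones.

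**Figure D3:**
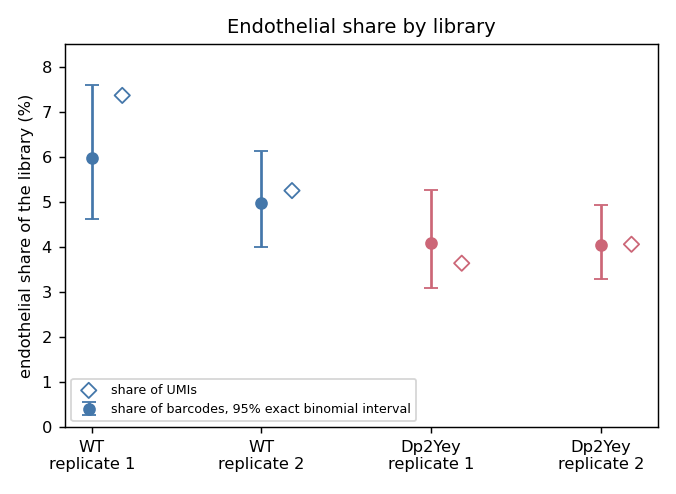
Endothelial share of each library. Filled points give the share of barcodes with its 95% exact binomial interval, which holds counting error only, and open diamonds give the share of UMIs. Both Dp(10)2Yey libraries are lower on both measures, and WT replicate 1 has the highest shares.

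Each member's difference in whole libraries can be written as a sum of parts on the log2 scale, all Dp(10)2Yey over WT and none of them a test. One is the share of barcodes that are endothelial, -0.42 for every gene. The next is the mean depth of an endothelial barcode over that of any barcode, -0.27 for every gene. Together they came to -0.69, beside a median whole-library difference of -0.79 over the members. The depth part was 0.07 with median depths, and with a library left out it was -0.16 and -0.39 on dropping WT replicate 1 or 2, and -0.19 and -0.36 on dropping Dp(10)2Yey replicate 1 or 2. The sum of share and depth was then -0.35 with medians and -0.94 to -0.45 with a library left out, all alternatives added once values were known. The gene's own share of endothelial UMIs had a median of -0.18, from -0.32 for Abcb1a to 0.04 for Ly6c1. UMIs outside endothelial barcodes made up the remainder, from -0.01 for Abcb1a to 0.69 for Mfsd2a. The largest remainders belonged to Mfsd2a and Slc2a1, at 0.69 and 0.35, the genes with the smallest shares of UMIs in endothelial barcodes. In the stricter endothelial set the parts were -0.51 for the share, -0.29 for depth and a median of -0.11 within endothelial barcodes.

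How the parts divided depended on which barcodes were taken as endothelial. A gate of at least 3 of the 19 panel genes with no cluster took 503 barcodes, 252 of them in the endothelial cluster and 223 in microglia clusters. Its shares of barcodes were 8.57% and 8.08% in WT, and 7.43% and 7.42% in Dp(10)2Yey, a log2 ratio of -0.16. Under this gate the depth part was -0.09, the median within part was -0.61, and the median fold change of the members in the sums was -0.60, with 0 of 7379 genes called and 438 at an unadjusted p under 0.05 in the edgeR quasi-likelihood test. The within part here is a share of the UMIs of all gated barcodes, those from microglia clusters included. Cldn5 had 1306 and 2260 UMIs in gated barcodes of WT and 1043 and 2059 in Dp(10)2Yey. In the cluster it had nearly the same counts, 1303 and 2263 in WT and 1014 and 2045 in Dp(10)2Yey. Its level was lower under the gate, at 3485 and 3138 CPM in WT and 2193 and 2152 CPM in Dp(10)2Yey. The part of the microglia barcodes in these values was not tested.

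**Figure D4:**
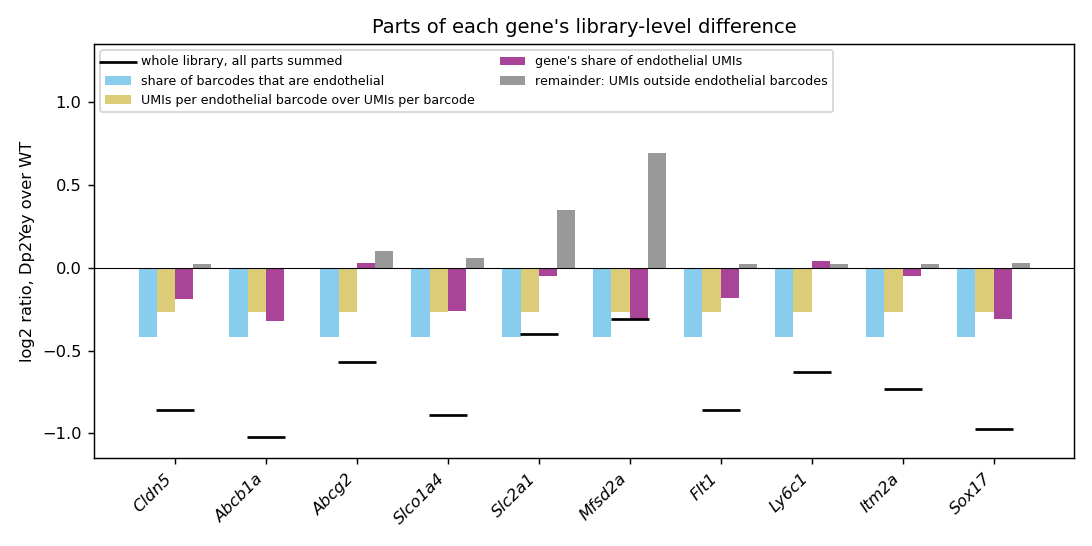
Parts of the log2 difference between genotypes in whole libraries, for endothelial barcodes taken by cluster. The share and depth parts are the same for all genes, the part within endothelial barcodes lies between -0.32 and 0.04, and the grey remainder is largest for Mfsd2a and Slc2a1. Black marks give the sum of the parts.

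Other genes of the barrier were followed in the same endothelial sums through 6 lists of 95 genes, of which 70 had enough counts. Of these, 0 had an adjusted p under 0.01 in the edgeR quasi-likelihood test with Benjamini-Hochberg adjustment and 2 had an unadjusted p under 0.05, beside 4.18% of all 4790 genes, and DESeq2 on the same sums called 0 of all genes. Fold changes were below 0 for 47 and above 0 for 23, with a median of -0.12, beside 50.3% below 0 and a median of -0.00 over all 4790 genes. By list, 8 of 10 junction genes, 13 of 20 transport genes, 14 of 19 Wnt genes and 8 of 13 genes of VEGF, angiopoietin and Notch signalling were below 0, with medians of -0.14, -0.10, -0.21 and -0.12. The 2 Ly6 genes tested had a median of 0.08, and the 6 genes of vesicle traffic and endothelial activation a median of 0.03. Genes are named from the 2 of each list with the smallest unadjusted p, and each had an adjusted p of 0.999.

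The junction protein gene Ocln had 303 and 184 CPM in WT replicates 1 and 2 and 204 and 146 CPM in Dp(10)2Yey replicates 1 and 2, with a log2 fold change of -0.48 (standard error 0.28), and its values overlapped between genotypes. With a library left out Ocln ranged from -0.83 to -0.10. The metal carrier Slc39a8 had 118 and 128 CPM in WT and 48.4 and 84.6 CPM in Dp(10)2Yey, lower in both Dp(10)2Yey libraries, with -0.79 (standard error 0.31, unadjusted p = 0.0241), and from -1.35 to -0.54 with a library left out. The transferrin receptor gene Tfrc had 579 and 573 CPM in WT and 468 and 423 CPM in Dp(10)2Yey, also without overlap, with -0.38 (standard error 0.18), but 0.02 with barcodes thinned to 1000 UMIs. Of the Wnt genes, the transcription factor Tcf7 had -0.64 (standard error 0.35), or -0.80 to -0.40 with a library left out, and Apcdd1, an inhibitor of the pathway, had 0.98 (standard error 0.46), or 0.52 to 1.40 with a library left out. Notch4, an endothelial Notch receptor, had 27.1 and 47.3 CPM in WT and 75.3 and 76.9 CPM in Dp(10)2Yey, higher in both Dp(10)2Yey libraries, with 0.96 (standard error 0.39, unadjusted p = 0.0307), or 0.70 to 1.48 with a library left out. The VEGF-C receptor gene Flt4 had -0.76 (standard error 0.37), or -1.32 to -0.52 with a library left out. Several of these fold changes rest on few UMIs. In WT replicates 1 and 2 and Dp(10)2Yey replicates 1 and 2, Apcdd1 had 8, 7, 9 and 21 UMIs, and Notch4 had 6, 17, 14 and 30. In the same order Flt4 had 19, 28, 6 and 22 UMIs, Tcf7 had 21, 28, 12 and 19, and Slc39a8 had 26, 46, 9 and 33. Ly6a and Ly6e had 0.21 (standard error 0.19) and -0.05 (standard error 0.18), and the adhesion genes Vcam1 and Icam1 had 0.82 (standard error 0.74) and 0.50 (standard error 0.48). With a library left out Ly6a ranged from 0.04 to 0.37 and Ly6e from -0.15 to 0.05. Icam1 ranged from 0.10 to 0.82 in 3 fits and had no value without Dp(10)2Yey replicate 2. It had 45.2 and 27.8 CPM in WT and 26.9 and 61.5 CPM in Dp(10)2Yey. Dp(10)2Yey replicate 1 was thus the lowest library for Icam1 and Dp(10)2Yey replicate 2 the highest. Vcam1 had 27.1 and 133 CPM in WT and 5.38 and 256 CPM in Dp(10)2Yey, so that replicate 2 was the higher library of both genotypes. Its fold change turned on single libraries: 1.54 without Dp(10)2Yey replicate 1 (adjusted p = 0.000255, edgeR), 2.50 without WT replicate 2 (adjusted p = 0.000567, edgeR), -3.92 without Dp(10)2Yey replicate 2 (adjusted p = 0.00319, edgeR) and 0.23 without WT replicate 1 (adjusted p = 0.999, edgeR).

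Vessel zone gave a comparison that did not use the genotype. Endothelial barcodes were put in a zone by lists of arterial, capillary and venous genes that hold no member, which gave 27 arterial barcodes (6 and 5 in WT, 6 and 10 in Dp(10)2Yey) and 225 capillary barcodes (49 and 70 in WT, 43 and 63 in Dp(10)2Yey). UMIs were summed for each zone and library, and arterial and capillary sums were fitted with the library as a block. The lists also gave 28 venous barcodes (4 and 7 in WT, 2 and 15 in Dp(10)2Yey), for which no fit is given. Between venous and capillary sums, 3 members were lower in venous in every library. Itm2a was higher in venous in every library, and 6 members went both ways. The share of all genes with these directions was not counted. The arterial sum of Dp(10)2Yey replicate 1 goes against its name: it held 0 UMIs of the endothelial genes Cdh5, Pecam1 and Eng, 9 of 19 panel genes at 1202 CPM in all, and 23 of 23 microglia genes at 21561 CPM. In the arterial sums of the other libraries the panel came to 6563 to 8527 CPM and microglia genes to 1327 to 9179 CPM. Pericyte and smooth muscle genes came to 3760 and 9933 CPM in the arterial sums of WT replicates 1 and 2 and to 14499 and 19815 CPM in those of Dp(10)2Yey replicates 1 and 2, above the panel in all but WT replicate 1. The fit across zones is given with and without Dp(10)2Yey replicate 1, and the other zone values include it. Cldn5 had 3357, 3902, 225 and 3318 CPM in the arterial sums of WT replicates 1 and 2 and Dp(10)2Yey replicates 1 and 2. In the capillary sums of the same libraries Cldn5 had 6405, 6604, 5843 and 5434 CPM. The arterial sum was lower in 4 of 4 libraries, and in Dp(10)2Yey replicate 1 it rested on 3 UMIs. For Itm2a the arterial values were 2283, 1197, 451 and 2339 CPM and the capillary values 4085, 3891, 3708 and 4160 CPM, again with the arterial sum lower in 4 of 4 libraries. Abcg2 had 403, 177, 75.1 and 411 CPM in arterial and 655, 793, 632 and 762 CPM in capillary sums, with the same direction in 4 of 4 libraries. Of the members, 6 were lower in the arterial sum of every library, as were 13.8% of all 1575 genes, and 4 were higher there in at least 1 library: Abcb1a, Slc2a1, Ly6c1 and Sox17. In Dp(10)2Yey replicate 1, whose arterial sum goes against its name, every member was lower. That library therefore does not separate the 6 from the 4. Abcb1a was higher in the arterial sum only in Dp(10)2Yey replicate 2, at 1327 beside 1324 CPM, on 42 arterial UMIs. Slc2a1 and Ly6c1 were higher there only in WT replicate 1, at 1410 beside 1235 CPM and 3424 beside 3173 CPM. Each of these genes is thus among the 4 through 1 library. For Sox17 the arterial sums held 9, 7, 0 and 8 UMIs, too few to order the libraries.

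All 10 members had a fitted log2 fold change, arterial over capillary, below 0, with a median of -1.07 beside -0.06 over all 1575 genes tested, of which 54.9% were below 0. None passed the threshold: 0 of 10 members had an adjusted p under 0.05 in the edgeR quasi-likelihood test with Benjamini-Hochberg adjustment, and 6 had an unadjusted p under 0.05, as did 204 of all 1575 genes, while 2.57% of the 1557 genes outside the zone lists were called, 1.09% as lower and 1.48% as higher in arterial sums. The lowest fold changes were those of Itm2a at -1.46 (standard error 0.41, adjusted p = 0.0539), Abcg2 at -1.40 (standard error 0.41, adjusted p = 0.0715), Cldn5 at -1.39 (standard error 0.49, adjusted p = 0.147) and Slco1a4 at -1.37 (standard error 0.43, adjusted p = 0.0979). Mfsd2a had -1.22 (standard error 0.51) and Flt1 -0.93 (standard error 0.40), and Sox17 was nearest to 0 at -0.11 (standard error 0.48, adjusted p = 0.983). Without Dp(10)2Yey replicate 1 the median of the members was -0.74, 9 of 10 were below 0, and 2 were called, Itm2a at -1.17 (adjusted p = 0.0138, edgeR) and Abcg2 at -1.25 (adjusted p = 0.0329, edgeR), beside 3.66% of all genes. The arterial sums left in this fit still held the pericyte and microglia RNA given above. Cldn5 was then at -0.87, Flt1 at -0.61, Ly6c1 at -0.31 and Sox17 at 0.09. DESeq2 on all 4 libraries called 1 member, Itm2a, and 2.98% of all genes, and a fit with no library block called 1, Abcg2, and 4.13% of all genes.

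Barcodes gated as arterial held more RNA of other cells. Pericyte and smooth muscle genes summed to 13350 CPM in them and 3635 CPM in capillary barcodes, microglia genes to 7136 and 1511 CPM, and the endothelial panel to 6590 and 10365 CPM. In the stricter endothelial set 15 arterial barcodes remained, in which pericyte genes still summed to 9811 CPM, beside 2852 CPM in capillary barcodes, and microglia genes to 5094 and 1548 CPM. In this set 0 members were called, 9 of 10 had a fold change below 0 and 5 had an unadjusted p under 0.05, beside 1.42%, 61.6% and 8.53% of all 1337 genes. The marker gate, whose 503 barcodes include 223 from microglia clusters, called 10 members and 32% of all genes (1058 of 3309). The part of other cells in the difference between zones was not tested.

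**Figure D5:**
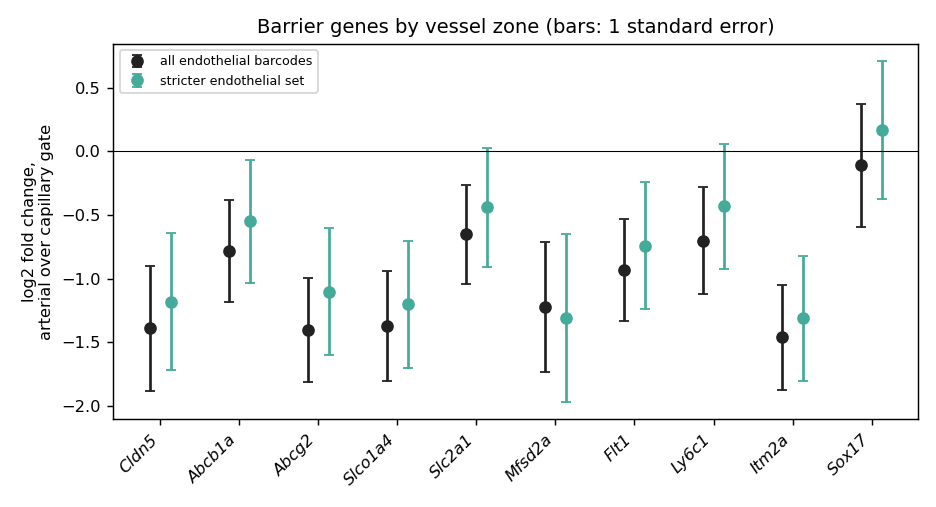
Fold change of each gene between arterial and capillary gates among endothelial barcodes, with 1 standard error. Black points use all endothelial barcodes and green points use the stricter endothelial set. Values lie below 0 for all genes but Sox17 among the green points, and none passed the threshold.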

How the data were processed

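Hippocampal cells of 4 mice were measured with 1 droplet library each. The authors made the deposited counts, raw UMI counts for 31055 genes, with Cell Ranger 3.0.2 and mm10. From these, barcodes under 200 genes (leaving 6281 of 6464) and genes found in 3 cells or fewer were dropped. No barcode had fewer than 500 UMIs. No first-pass cluster at resolution 0.5 had a median globin share over 50%, so the 17 barcodes over 50% were removed, leaving 6264. Seurat 5.3.0 in R 4.3.3 integrated the libraries over 2000 variable genes, members left out, with 50 dimensions and a resolution of 0.2. A cluster was named for the class with most markers among its top 50 genes by fold with 10 CPM added, members left out. At least 3 markers were needed. This rule was set after the clusters were seen, and names may differ from the study's. Scrublet in scanpy 1.11.5 called 54 doublets (0.860%), kept in the main fits and removed in an alternative.

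UMIs were summed by library, class or zone. Levels are UMIs per 1000000 UMIs of the sum. Sums were compared with edgeR 4.0.16 (TMM, filterByExpr, quasi-likelihood test, two-sided, Benjamini-Hochberg over all genes tested) at an adjusted p under 0.01 for genotype and 0.05 for zones, and with DESeq2 1.42.0. The fits were tested on simulated data. Intervals of shares are exact Clopper-Pearson 95% intervals and hold counting error only. A zone needed at least 2 UMIs of its list. The alternatives were other size factors, no filter, a replicate block, other endothelial barcodes, doublets, mitochondrial or globin UMIs removed, thinning to 1000 UMIs, other zone gates and each library left out. The stricter endothelial set, leaving out barcodes over 5% globin, and recomputing the parts with other barcodes, median depths or a library left out, were chosen after the data were seen. For the first, only barcodes with at least 2 panel genes and more panel than pericyte genes were kept, 250 of 298.

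Named genes are the members, the 2 genes with the smallest unadjusted p in each of the 6 lists where fewer than 5 passed, the 5 genes most like the members, and the near relatives Ly6c2 and Abcb1b. A gene that this rule takes is not reported here. Members and lists were chosen with earlier results of these data known.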

Additional observations from a re-analysis of the deposited data

How the results depend on the processing

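In endothelial sums, 0 of 4790 genes were called in the main fit and 7 of 4790 with the replicate number as a block. With no filter beyond 1 UMI, 17 of 14058 were called. Leaving out a library gave 7 to 30 calls among 4425 to 6358 genes tested, with a lone library assumed to vary like the others. The other alternatives gave 0, and no setting called a member. Which replicate numbers shared a preparation day is not given, so the numbers were not taken as pairs in the main fit. Deviations of same-numbered libraries from the genotype mean had a correlation of 0.02 over 4790 genes. With 2 mice of each genotype, this value cannot show whether same-numbered libraries shared a day. The block moved the members' median in whole libraries from -0.76 to -0.74 and left that in endothelial sums at -0.19. The latter median was -0.60 with the marker gate, -0.20 to -0.08 in the other 12 settings, and -0.18 to -0.05 with a library left out. In whole libraries, leaving out a library gave -0.88 to -0.51. The log2 share ratio, -0.42, was -0.16 with the marker gate, -0.55 to -0.29 with a library left out, and below 0 in all settings. Share and depth together, -0.69, came to -0.25 with the marker gate, -0.35 with median depths and -0.94 to -0.45 with a library left out. Members called between zones numbered 0, 10 with the marker gate (1058 of 3309 genes called), 1 with no library block (65 of 1575), 1 with DESeq2 (47 of 1575), and 0 to 2 with a library left out (4 to 71 genes). The cause was not tested. Values within endothelial barcodes rest on 2 mice of each genotype and 56 to 95 barcodes in a library, with standard errors of 0.18 to 0.22 for the members on the log2 scale.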
